A study of Mus musculus with 4 samples.

Results

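The genes described here are the zinc finger protein genes of 46C mouse embryonic stem cells (mESCs) in a table of genes changed by Go6983, an inhibitor of protein kinase C (PKC). A listed gene was taken when it was protein-coding in GENCODE M21 and its symbol was of the Zfp-number, Zscan, Zkscan, Zbtb, Zic, Zim, Zfhx or Rex2 kind. Of the 1577 listed genes, 21 met this rule, and no Zic, Zim, Zfhx or Rex2 gene was among them. The annotation holds 475 genes of this kind, so 4.42% of them were listed, beside 5.47% of all protein-coding genes. Total RNA was sequenced from 2 samples without treatment, in control medium (NT), and 2 samples given 5 μM Go6983. The length of treatment before sequencing is not given in the sources used here. All 4 samples come from the 1 line 46C, a mESC line in which the reporter for neural conversion sits at Sox1. Whether the 2 samples of a group were separate cultures is not said, so p-values measure only the spread between these samples. The labels give no batch or date.

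Zinc finger proteins are the largest class of DNA-binding proteins in mammals. In a C2H2 finger a pair of cysteines and a pair of histidines hold a zinc ion, and a row of such fingers reads a stretch of DNA. Many carry a further domain. KRAB domains recruit the corepressor Trim28 and, through it, the H3K9 methyltransferase Setdb1, which in mESCs silences transposable elements. SCAN and BTB domains let the proteins pair with each other.

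The values are log2(normalized count + 1), and the counts printed here are normalized counts with that scale undone. Each library could be turned back into whole reads, 859777 to 1054236 per sample over the listed genes, while the total depth is unknown. Every listed gene had been selected by the authors as at least 2-fold different at a p of 0.05 or less on these same samples. A gene's presence in the table, its direction and its p-value therefore come from 1 contrast, and the tests below describe the listed values without independent support. Genes that are not in the table could not be looked at.

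With Go6983, 14 of the 21 zinc finger protein genes rose and 6 fell. A gene counted when it changed 2-fold or more and its limma p, before adjustment, was no higher than 0.05. *Zfp853* did not pass. Over all 1577 listed genes 68.9% rose and 29.7% fell by the same rule, and the members stood at 66.7% and 28.6%. The split was thus close to that of the table. Under median-ratio scaling of the libraries, which shifts the listed genes by a median of -1.10 on the log2 scale, 3 members were higher and 7 lower. The 3 were *Zfp935*, *Zfp46* and *Zfp521*, and no other riser then had an adjusted p below 0.05. The scaling was set on a table of mostly higher genes, so it lowers rises and deepens falls by construction. *Zscan26*, for example, went from -1.16 to -2.28. Small rises thus lose their call through the shift itself, and without the unlisted genes the scaling cannot be checked. In the main fit the median log2 fold change was 1.14 over the members and 1.21 over all listed genes. At an adjusted p below 0.05, with the Benjamini-Hochberg adjustment over all 1577 genes, 20 members were called, beside 98.5% of the listed genes. These genes had already been selected by p, so the adjustment changes little. For *Zscan5b* the limma p went from 0.0296 to 0.0315. The adjusted p-values given here are thus no false discovery rate over all genes sequenced. The 2 Go6983 samples did not overlap the 2 NT samples in any of the 21 members, and 99.7% of the listed genes had the same property, so nothing is read from this. The fold changes nearest to the 2-fold limit were -1.03 for *Zscan4d* and 1.06 for *Zfp607b* on the log2 scale.

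**Figure D1:**
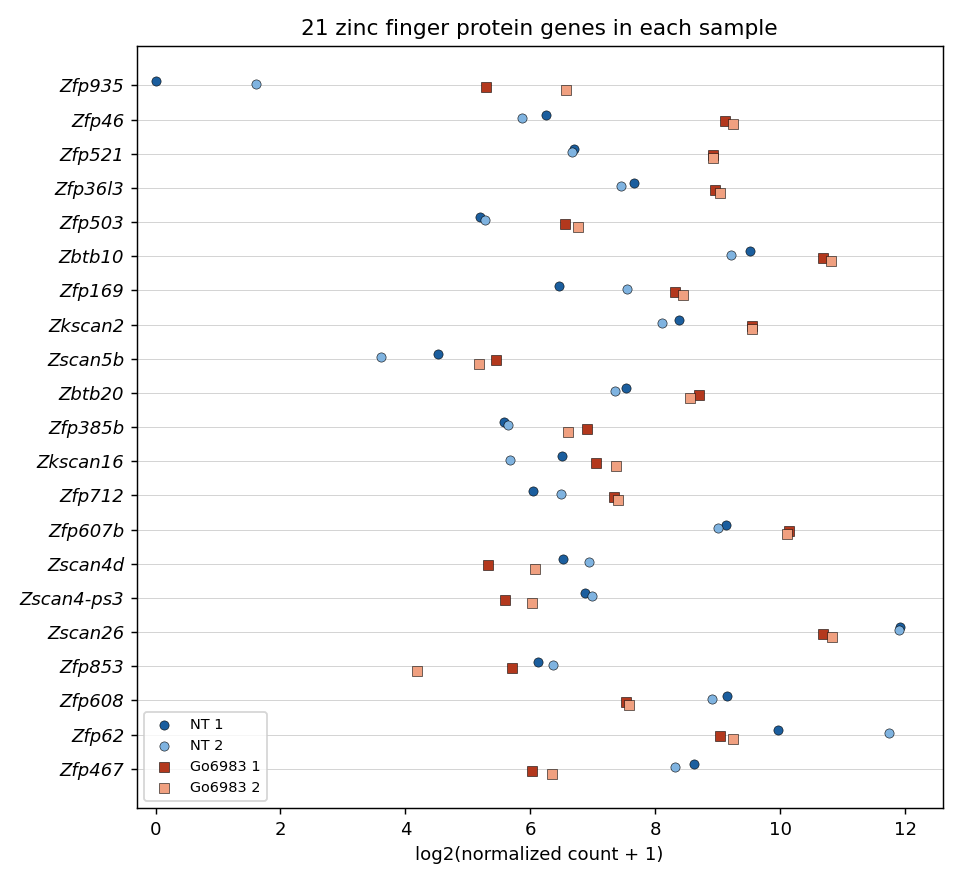
Level of each of the 21 zinc finger protein genes in each sample, as log2(normalized count + 1) on the x axis, with genes ordered by fold change on the y axis. Circles are the NT samples and squares the Go6983 samples. The pairs of *Zfp521* lie almost on each other, while the 2 NT values of *Zfp62* lie far apart (995 and 3443 normalized counts).

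The groups of genes below are ordered by the domains found in the protein. A finger was counted by the pattern of a C, 2 to 4 residues, a C, 12 residues, an H, 3 to 5 residues and an H in the M21 coding sequence. By this pattern 18 of the 21 members held at least 1 finger, with a median of 5 and a highest number of 27 in *Zfp521*. Over the zinc-finger-named genes of the annotation whose coding sequence could be read, 474 in number, the median was 9. A KRAB pattern was found in 5 of the 21 members (23.8%) and in 40.9% of those genes, and a SCAN pattern in 5 members (23.8%) and in 8.23% of those genes. The KRAB and SCAN patterns were loosened after earlier matches had been seen. The SCAN pattern finds 27 of the 30 genes named Zscan or Zkscan, and the KRAB pattern finds 2 of them. *Zkscan2* matched only the SCAN pattern and *Zkscan16* only the KRAB pattern. A gene without a match may still carry the domain, so the groups below are groups of pattern matches.

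To show what the counted fingers look like at the DNA level, the coding sequence of the first finger is given for 3 genes with long rows of fingers and for *Zscan26*, the member with the highest level per kb, with the codons of the zinc-holding cysteines and histidines in capitals. All 4 are from the M21 transcripts and are 63 bases long.
Zfp46: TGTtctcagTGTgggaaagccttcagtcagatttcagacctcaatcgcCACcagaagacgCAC
Zfp62: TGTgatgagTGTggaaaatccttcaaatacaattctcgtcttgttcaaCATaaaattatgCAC
Zfp467: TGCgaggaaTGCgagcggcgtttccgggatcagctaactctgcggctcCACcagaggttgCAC
Zscan26: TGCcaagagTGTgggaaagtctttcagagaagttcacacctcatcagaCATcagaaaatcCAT

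*Zfp46*, *Zfp467*, *Zfp62* and *Zfp853* hold rows of fingers with neither a KRAB nor a SCAN match. *Zfp46* (12 fingers) had 75.6 and 57.2 normalized counts in NT and 556 and 609 after treatment. Both treated samples lay far above both NT samples. The means were 66.4 ± 13.0 and 583 ± 37.2 (SD, n = 2 each), an 8.78-fold rise, and the log2 fold change was 3.13 ± 0.19 (SE, limma adjusted p = 0.000375). *Zfp46* (chr4:136284683-136293942, plus strand, GRCm38) shares no 50-base stretch with any other annotated gene.

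*Zfp467*, whose protein is known as an enhancer of the STAT3 response, also has 12 fingers and moved the other way. Its normalized counts were 391 and 317 in NT and 64.4 and 80.3 with Go6983. The groups were well apart, and the 4.89-fold fall was the largest among the members in both linear counts and log2 values. The log2 fold change was -2.27 ± 0.20 (SE, limma adjusted p = 0.000446).

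*Zfp62* has 25 fingers. Its normalized counts were 995 and 3443 in NT and 524 and 607 with Go6983. NT replicate 2 stood at more than 3 times NT replicate 1, whereas the treated samples were close to each other. The log2 fold change was -1.71 ± 0.55 (SE, limma adjusted p = 0.0241). Without NT replicate 2 it was -0.82 and without NT replicate 1 it was -2.61, so the size of the fall rests on which NT sample is used. The adjusted p was 0.251 when Go6983 replicate 1 was left out and 0.215 when replicate 2 was. The 2 NT samples of *Zfp62* differed by 1.79 log2 units, a larger difference than in 99.1% of the listed genes that averaged 50 or more normalized counts in their higher group.

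*Zfp853* (5 fingers) had 68.6 and 81.7 normalized counts in NT and 51.3 and 17.1 with Go6983. The 2 treated samples differed by 1.53 log2 units, which is more than in 99.2% of the same listed genes. Its log2 fold change was -1.30 ± 0.53 and the adjusted p from limma was 0.054, the only member above 0.05. Without Go6983 replicate 1 the log2 fold change was -2.07 and without replicate 2 it was -0.54. The adjusted p ranged from 0.0146 to 0.0859 over the other ways of fitting, and from 0.0487 to 0.277 when a sample was left out.

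A KRAB pattern was present in *Zfp935*, *Zfp169*, *Zkscan16*, *Zfp712* and *Zfp607b*. All 5 rose with Go6983, with log2 fold changes of 1.06 to 5.13, in a table where 68.9% of the genes rose. Under median-ratio scaling *Zfp712* (-0.0073) and *Zfp607b* (-0.063) turned direction, the limma adjusted p was 0.664 for *Zfp169* and 0.982 for *Zkscan16*, and of the 5 *Zfp935* alone was still called. *Zfp607b* (17 fingers) was the most abundant of them per kb of exon, at 97.4 normalized counts per kb in NT and 203 with Go6983. It had 562 and 511 normalized counts in NT and 1130.5 and 1104 with Go6983, a close set in each group, with a log2 fold change of 1.06 ± 0.11 (SE, limma adjusted p = 0.000527). Of its 50-base stretches 10.9% also occur in other genes, *Zfp780b* and *Zfp974* first among them.

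*Zfp169* (17 fingers) had 87.5 and 186 normalized counts in NT and 318 and 348 with Go6983. Its NT samples were spread by 1.08 log2 units. The log2 fold change was 1.38 ± 0.35 (SE), with a limma adjusted p of 0.0123, which rose to 0.151 and 0.175 without Go6983 replicates 1 and 2. *Zkscan16* (8 fingers) had 89.5 and 50.1 normalized counts in NT and 132 and 165 with Go6983, and its adjusted p of 0.0178 was kept below 0.05 only when NT replicate 1 was the sample left out. *Zfp712*, with 20 fingers, had between 64.6 and 88.9 normalized counts in NT and between 161 and 168 with Go6983, and its adjusted p was 0.0857 and 0.0954 when Go6983 replicates 1 and 2 were left out.

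*Zfp935* showed the largest rise on the log2 scale and had the fewest reads of the members in NT. It was covered by 0 and 2 reads in NT and by 41 and 88 reads with Go6983. Both treated samples were above both NT samples, and the treated samples themselves differed by more than 2-fold. Scaled by the size factors, the ratio of the 129 treated to the 2 NT reads was 63.8, with an exact 95% interval of 17.3 to 533 that covers counting error only. The fitted log2 fold change was 5.13 ± 0.71 (limma adjusted p = 0.00141), and it was 7.02 and 8.71 with added counts of 0.1 and 0.01. It was 4.33 and 5.93 without NT replicates 1 and 2, and 5.77 and 4.49 without Go6983 replicates 1 and 2. Without Go6983 replicate 2 the adjusted p was 0.0615.

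The reads of *Zfp935* cannot be given to that gene alone. Every 50-base stretch of its annotated transcript (100%) also lies in another gene, and 99.2% lies in *Gm49359*, a protein-coding gene on the same strand. *Zfp935* also overlaps *Zfp934* by exon bases. The M21 coding sequence of *Zfp935* (chr13:62453715-62558511, minus strand) has 150 residues with a KRAB match and no finger. *Gm49359* and *Zfp934* are not in the table.

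The SCAN genes went both ways, with *Zkscan2* and *Zscan5b* higher and *Zscan26*, *Zscan4d* and *Zscan4-ps3* lower. *Zscan26*, known as a protein that binds the serum response element, was the highest of the members per kb of exon, at 886 normalized counts per kb in NT and 398 with Go6983. It had 3887 and 3847 normalized counts in NT and 1644 and 1828 with Go6983. The 2 NT samples were nearly equal, and the log2 fold change was -1.16 ± 0.10 (SE, limma adjusted p = 0.000428). Of its 50-base stretches 22.8% occur elsewhere, 21.5% in *4930470G03Rik*, a gene on the opposite strand of the same place. Counting with strand is not stated, so reads of that part cannot be told apart.

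*Zkscan2* (6 fingers) had 332 and 275 normalized counts in NT and 748 and 751 with Go6983. The treated samples were almost identical, and the log2 fold change was 1.31 ± 0.14 (SE, limma adjusted p = 0.000557). Under median-ratio scaling it was 0.19 (limma adjusted p = 0.38). *Zscan5b* had the lowest level in its higher group of all 21, at 21.9 and 11.2 normalized counts in NT and 42.9 and 35.3 with Go6983. Its adjusted p of 0.0315 stayed below 0.05 only without NT replicate 1 among the 4 fits that left out a sample.

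*Zscan4d* belongs to a gene cluster of the 2-cell embryo, whose transcripts mark a rare state of mESCs and which is known for a role at telomeres. Its normalized counts were 91.5 and 122 in NT and 39.2 and 66.4 with Go6983. The groups did not overlap, but the treated samples lay 0.74 log2 units apart. The log2 fold change was -1.03 ± 0.34 (SE, limma adjusted p = 0.0258), and the adjusted p was above 0.05 in each of the 4 fits without a sample (0.0714 to 0.185). *Zscan4-ps3*, another copy of the cluster that carries a pseudogene symbol but is protein-coding in M21, had 116 and 126 normalized counts in NT and 47.6 and 64.2 with Go6983, with a log2 fold change of -1.11 ± 0.25 and a limma adjusted p of 0.00785. Left out 1 sample at a time, its adjusted p ran from 0.0444 to 0.0641. *Zscan4a*, which is listed but is not protein-coding in M21, had 180.0 and 116 normalized counts in NT and 43.9 and 66.4 with Go6983.

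The Zscan4 copies share most of their sequence. Of the 50-base stretches, 49.6% in *Zscan4d* and 72.5% in *Zscan4-ps3* occur in another gene, chiefly in other copies. Their coding sequences, 1518 bases each, differ at 43 bases. The window from coding base 676 to 765 holds 11 of these differences, the most among the windows of that length compared. It is shown with the differing bases in capitals. Other copies were not compared in this window, so the capitals mark only where *Zscan4d* and *Zscan4-ps3* differ from each other.
Zscan4d: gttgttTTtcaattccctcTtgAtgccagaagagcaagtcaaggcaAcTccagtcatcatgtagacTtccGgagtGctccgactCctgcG
Zscan4-ps3: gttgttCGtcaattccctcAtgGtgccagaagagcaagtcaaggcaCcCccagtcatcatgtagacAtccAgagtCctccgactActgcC
How the authors placed reads with several equal matches is not given in the sources used here, so the values of single copies are uncertain. *Zscan4d* and *Zscan4a* were the only 2 of 27 genes on a list of 2-cell-like markers in the table. Their summed normalized counts were 238 to 272 in NT and 83.1 to 133 with Go6983. The part of a changed share of 2-cell-like cells in these values was not tested, and fewer such cells and less RNA per cell cannot be told apart in bulk samples.

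The BTB genes *Zbtb10* and *Zbtb20* both rose. Neither was called under median-ratio scaling, whose shift lowers rises by construction. Their log2 fold changes were then 0.26 and 0.066 (limma adjusted p = 0.208 and 0.817). *Zbtb10* had 733 and 591 normalized counts in NT and 1643 and 1803 with Go6983. Its log2 fold change was 1.39 ± 0.14 (SE, limma adjusted p = 0.000491), and at 89.3 and 232 normalized counts per kb it was among the more abundant members. *Zbtb20*, a repressor known from the fetal liver gene Afp and from the hippocampus, had 184 and 162 normalized counts in NT and 414 and 376 with Go6983. Its log2 fold change was 1.18 ± 0.15 (SE, limma adjusted p = 0.000965).

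The remaining genes, *Zfp521*, *Zfp608*, *Zfp36l3*, *Zfp503* and *Zfp385b*, differ in layout, with 27, 1, 0, 0 and 4 C2H2 finger matches. *Zfp521*, known for driving mESCs into neural progenitors, had 102 and 100.1 normalized counts in NT and 487 and 486 with Go6983. The spread within each group was very small, and the 4.80-fold rise gave a log2 fold change of 2.25 ± 0.14 (SE, limma adjusted p = 0.000375). *Zfp608*, which takes part in Rag gene control in the thymus, had 570 and 479 normalized counts in NT and 185 and 191 with Go6983. Its log2 fold change was -1.47 ± 0.15 (SE, limma adjusted p = 0.000488). Both genes lie on chromosome 18.

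*Zfp36l3* is a rodent gene of the tristetraprolin family, whose CCCH fingers bind mRNA and speed its decay, and is known from the placenta. No C2H2 finger but 2 CCCH fingers were found in it. It had 200.9 and 175 normalized counts in NT and 496 and 526 with Go6983, and a log2 fold change of 1.44 ± 0.14 (SE, limma adjusted p = 0.000488). Under median-ratio scaling that fold change was 0.32 (limma adjusted p = 0.134). *Zfp503*, known from the striatum, had no match to the C2H2 or the CCCH pattern. It had 35.8 and 37.8 normalized counts in NT and 93.4 and 108 with Go6983, with a log2 fold change of 1.42 ± 0.25 and a limma adjusted p of 0.0034, which was 0.0577 and 0.0745 when Go6983 replicates 1 and 2 were left out. *Zfp385b* stood between 46.7 and 49.0 normalized counts in NT and between 96.3 and 119 with Go6983, and its adjusted p was 0.0875 and 0.0615 in the same pair of fits. These 5 genes did not share a direction, as *Zfp608* fell and the other 4 rose.

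**Figure D2:**
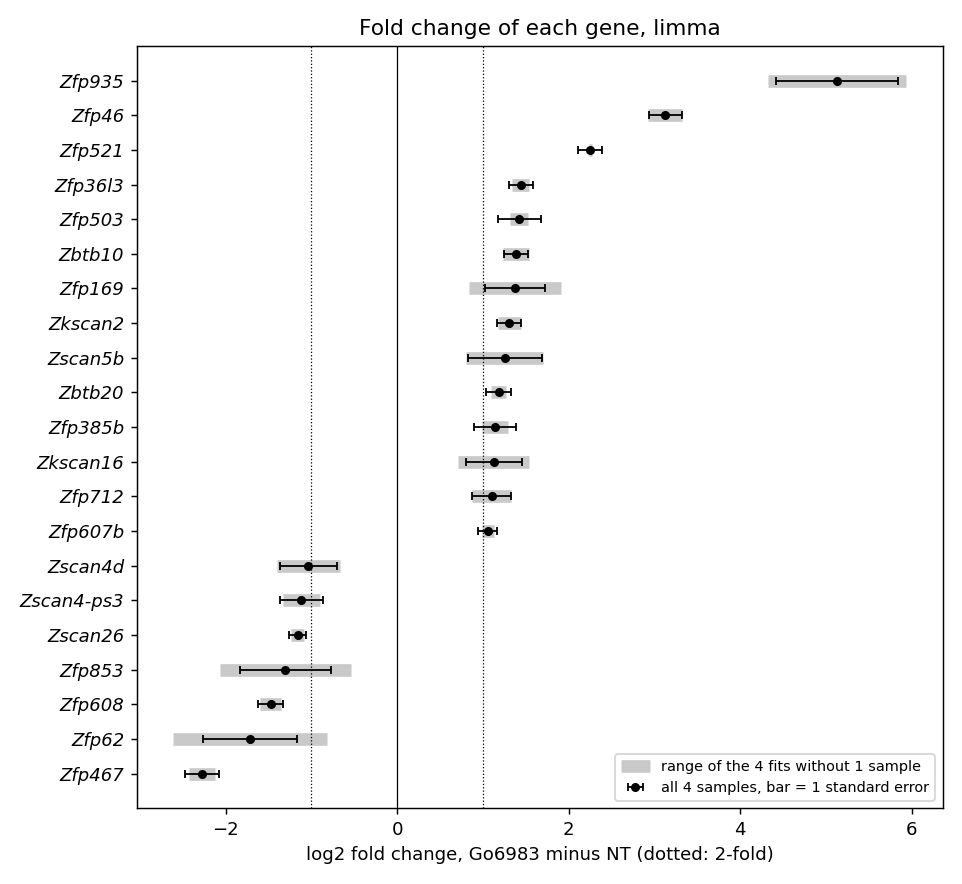
Log2 fold change (Go6983 minus NT) of each gene on the x axis, with points from limma on all 4 samples, bars of 1 standard error and grey bands for the range of the 4 fits that left out 1 sample. The dotted lines mark 2-fold. The bands are narrow for *Zfp521* and *Zfp607b*, and reach from -2.61 to -0.82 for *Zfp62*.

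How far replicates agreed varied between the members. The difference between the 2 NT samples had a median of 0.27 log2 units over the members. It was 0.23 over the 1044 listed genes that averaged 50 or more normalized counts in their higher group. Between the 2 Go6983 samples the medians were 0.15 and 0.20. A difference of 1 log2 unit or more between the NT samples was seen in 3 members, *Zfp935*, *Zfp169* and *Zfp62*, which is 14.3% beside 5.84% of those listed genes. Between the Go6983 samples it was seen in *Zfp935* and *Zfp853*, 9.52% beside 3.07%. The NT difference of *Zfp935* is that between 0 and 2 reads. *Zscan5b* is counted among the members although it averaged below 50 normalized counts in its higher group. With so few members these shares are only a description.

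**Figure D3:**
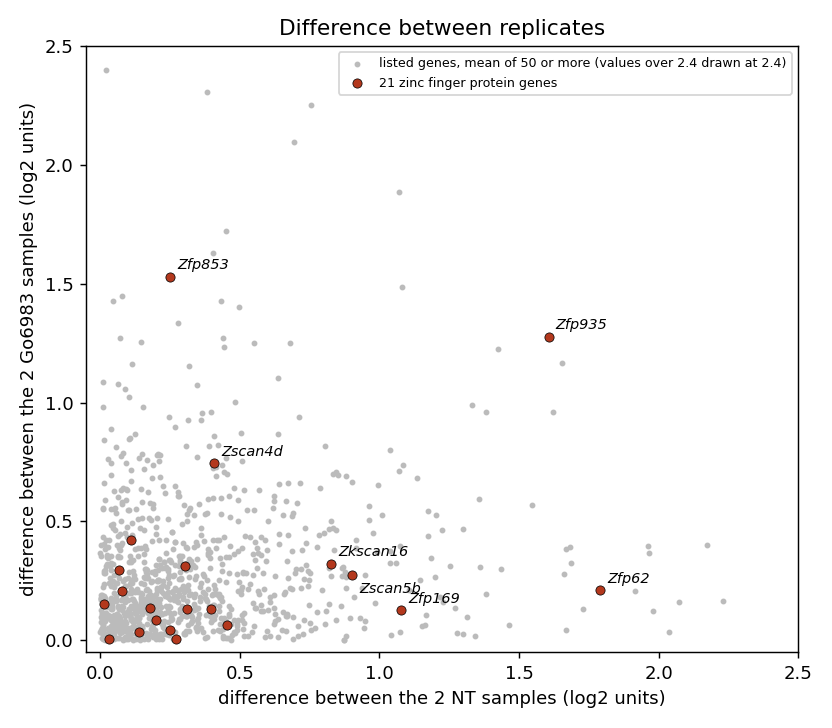
Absolute difference between the 2 NT samples (x axis) and between the 2 Go6983 samples (y axis), in log2 units, for the 21 zinc finger protein genes in red and the 1044 more abundant listed genes in grey. Most of the red points lie in the dense corner near 0, and *Zfp62*, *Zfp853*, *Zfp935* and *Zfp169* lie outside it.

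The 14 members that rose and the 6 that fell each had a median of 5.5 fingers. Beside 68.9% of listed genes higher and 29.7% lower, the 5 members with a KRAB match rose, and of the 5 with a SCAN match 2 rose and 3 fell. With 5 genes each, no contrast between the domains is read from this. Per kb of exon, the members that rose had a median of 15.7 normalized counts in NT and 47.3 with Go6983, and those that fell had 72.4 and 23.9. The members were split here by the same values, so nothing is read from the order of these medians.

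**Figure D4:**
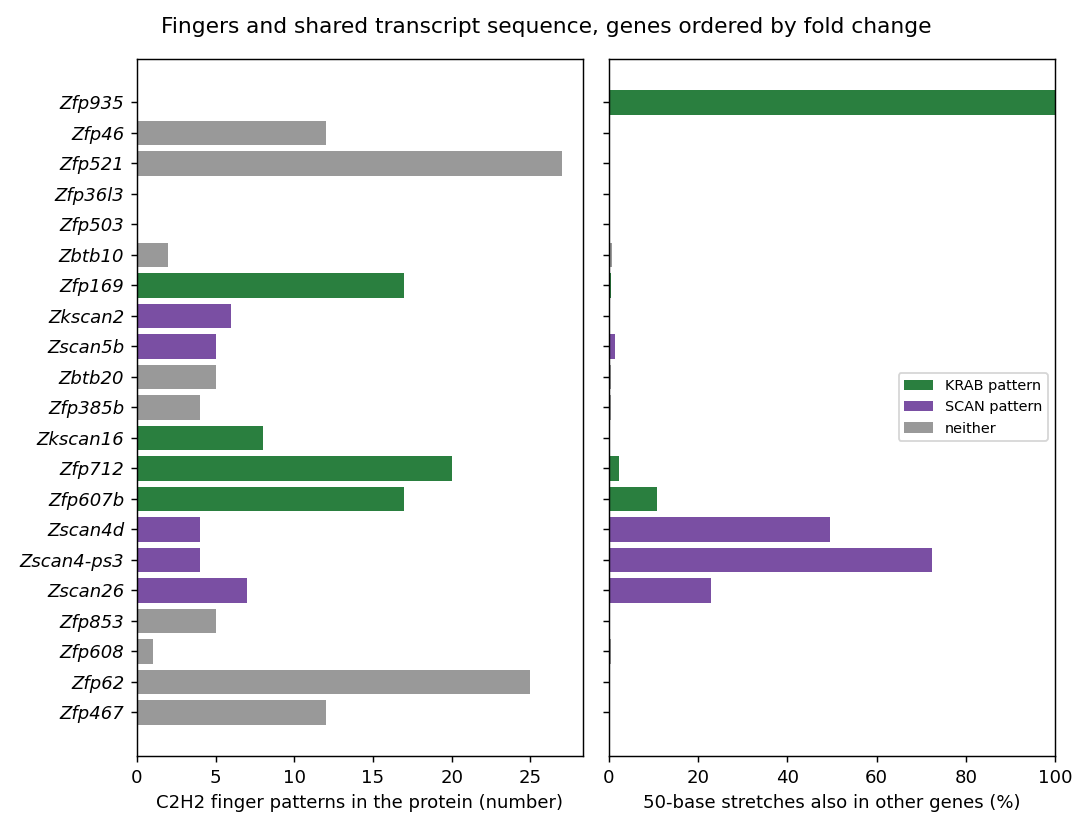
Number of C2H2 finger patterns per protein (left) and percentage of 50-base stretches of the transcripts that also occur in another gene (right), with genes in the order of their fold change. Green bars are genes with a KRAB match, purple with a SCAN match and grey with neither. *Zfp935* reaches 100% and the Zscan4 copies 49.6% and 72.5%, while 16 genes stay at 2.19% or less.

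Many zinc finger genes of the mouse stand in clusters. Within 500 kb of *Zfp712* lie 15 other genes named by the same rule, and 7 lie around each of *Zscan5b*, *Zfp607b* and *Zscan4d*. Of these neighbours only *Zscan4-ps3* was listed, beside *Zscan4d*. Apart from the Zscan4 pair, no member had a listed neighbour by this count. Some members, such as *Zfp46* and *Zfp62*, had no neighbour of this kind within 500 kb and so stood in no counted cluster. *Zscan4a*, a listed copy of the Zscan4 cluster, is not protein-coding in M21 and was outside the count. Whether the neighbours were expressed at all is not shown by the table.

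PKC is known to act on genes through AP-1, which binds TGACTCA, the phorbol ester response element. RefSeq promoters of GRCm38, from 250 bases before to 50 after a start, were held for 15 of the 21 members, 21 promoters in all. TGACTCA on either strand was found in 2 of them (9.52%), beside 5.20% of all 32851 promoters and 3.07% of the 489 promoters of zinc-finger-named genes. TGACGTCA was found in 0 of the 21 (1.79% of all and 3.89% of the zinc-finger-named), CACGTG in 0 (7.15% and 7.36%), and ATGGCGGC, a part of the Yy1 motif, in 1, that of *Zfp607b* (4.76%, beside 2.24% and 4.91%). None of these letter matches shows binding. Several promoters were held for *Zfp385b*, and only the 1 printed below has TGACTCA. Which start is used in these cells is not known. The windows of 100 bases with TGACTCA are printed because they belong to 1 gene that rose, *Zfp385b* (chr2:77703273-77703372, minus strand), and to the gene that did not pass, *Zfp853* (chr5:143293685-143293784, minus strand), with the motif in capitals, 45 and 247 bases before the start.
Zfp385b: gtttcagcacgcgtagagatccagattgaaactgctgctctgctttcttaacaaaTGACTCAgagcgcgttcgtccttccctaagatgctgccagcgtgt
Zfp853: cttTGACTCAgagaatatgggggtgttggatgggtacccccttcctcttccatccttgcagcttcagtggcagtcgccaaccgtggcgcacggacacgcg

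Genes that work with zinc finger proteins were looked up by list. Of 33 genes on a list of KRAB partners and of the H3K9 and DNA methylation machinery, 3 were listed, and all 3 fell. These were the DNA methyltransferase genes *Dnmt3a*, *Dnmt3b* and their cofactor *Dnmt3l*, with log2 fold changes of -1.65, -1.79 and -1.22. *Trim28*, *Setdb1* and the rest were not in the table. Of 35 zinc finger genes of pluripotency and imprint control 1 was listed, *Zscan4d*.

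C2H2 genes with other names were taken by family symbol, and those without a finger match in their coding sequence were dropped after their values had been seen. Of the 16 that stayed, 9 rose and 7 fell, with a median log2 fold change of 1.03, beside 68.9% of all listed genes higher and 29.7% lower. *Insm1* (-4.51), *Yy2* (-4.21) and *Wt1* (-3.33) fell by more than any of the 21 zinc finger protein genes. Among those that rose were *Prdm6* (1.81), *Tshz1* (1.67) and *Bcl6* (1.64). *Prdm6* was near the floor, at 2.98 and 5.11 normalized counts in NT and 11.2 and 23.5 with Go6983. The NT samples of *Wt1* lay apart, at 443 and 185, as did the Go6983 samples of *Tshz1*, at 140 and 241. Taken by a finger match alone, whatever the symbol, 23 listed protein-coding genes outside the 21 were found. Of these 16 rose and 7 fell, with a median of 1.15, so their split was close to that of the table.

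Of the markers of mESCs, 4 of 10 were listed. *Nanog*, *Klf4* and *Tfcp2l1* rose, *Utf1* fell, and the summed normalized counts were 55513 to 55944 in NT and 88977 to 92466 with Go6983. Of 5 neural markers *Pax6* and *Neurod1* were listed, and both fell, with sums of 1328 to 1538 in NT and 349 to 432 with Go6983. *Esx1*, 1 of 7 trophoblast markers, and *Col1a2*, 1 of 5 fibroblast markers, were higher, the latter at 31.8 to 40.9 normalized counts in NT and 78.4 to 82.4 with Go6983, and *Esx1* at 72.6 to 78.7 and 184 to 191. None of 7 primitive endoderm markers was listed. The part of other cell types in the values of the zinc finger protein genes was not tested.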

How the data were processed

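RNA was sequenced from 2 NT and 2 Go6983 samples. The authors deposited a log2 value of each listed gene in each sample, with group means and their own comparison (log2 fold change and p-value). Of that comparison only the deposited p-value was read, to learn how genes had been selected. Per the submitters' processing notes, Bowtie 0.12.2 and mm9 were used. The counter and the normalization were not given in the sources used here. Once the log2 and the added 1 were undone, 100% of the values up to 1000 reads were within 0.05 of whole multiples of 1 step per sample. The total depth is unknown. No per-sample column was left unused.

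The comparison was made in R 4.3.3 by limma 3.58.1 (lmFit, then eBayes with trend, without filter or replicate block) over all 1577 genes, with the Benjamini-Hochberg adjustment over all of them. The fit had 2 residual and 3.63 prior degrees of freedom. It was tested on simulated data. Replicates differed by more than counting error (chi-square per gene 10.2 in NT and 7.46 with Go6983). Symbols and coordinates came from GENCODE M21 on GRCm38, which matched 1572 genes, since the table holds no coordinates. Sharing was counted over all 50-base stretches of the annotated transcripts. Figures were drawn with matplotlib 3.10.9.

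The members, lists and tests were chosen with earlier results of these data known. Genes are given with values when the grouping rule names them (*Zfp46*, *Zfp62*, *Zfp935*, *Zscan4d*), when they are among the 8 largest rises or falls averaging 50 or more normalized counts in the higher group, when they carry a symbol other than Zfp, when they are on the pluripotency list or when they are among the 4 highest. *Zfp385b* and *Zfp712* are given by their range. The promoter windows were picked after the matches had been seen. Alternatives were another scaling, pseudocounts of 0.1 and 0.01, filters at 10 and 50 normalized counts, a replicate block, limma without trend, limma-voom on the recovered reads, other thresholds and each sample left out.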

Additional observations from a re-analysis of the deposited data

How the results depend on the processing

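The table holds only genes already selected as changed, with 2 samples per group. The counts of 14 higher and 6 lower members changed as follows. Under median-ratio scaling of the libraries on the listed genes, which by construction centres a table with mostly higher genes and shifts all genes by a median of -1.10 on the log2 scale, 3 members were higher and 7 lower. *Zfp712* (-0.0073) and *Zfp607b* (-0.063) then turned direction, and 9 other risers lost their adjusted p below 0.05. The 9 were *Zfp36l3*, *Zfp503*, *Zbtb10*, *Zfp169*, *Zkscan2*, *Zscan5b*, *Zbtb20*, *Zfp385b* and *Zkscan16*. At 4-fold, 3 were higher and 1 lower. Without 1 sample, 9 to 12 were higher and 3 to 5 lower. The 9 higher were without Go6983 replicate 1 and the 3 lower without NT replicate 2, and these fits have fewer samples. Among single genes, 10 kept an adjusted p below 0.05 in all 4 fits without a sample and 10 lost it in at least 1.

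With the replicate block, 14 members were higher and 6 lower, and no adjusted call of a member changed. The deviations of same-numbered samples correlated at 0.032 over all listed genes. Over the 894 genes with a mean of 50 or more normalized counts over all 4 samples the correlation was 0.099. These values cannot show whether same-numbered samples shared a batch or culture, and the labels do not say. *Zfp62* lost its call without trend (adjusted p = 0.0616) and, with *Zscan5b*, at a pseudocount of 0.01. With limma-voom and with both filters *Zfp853* gained a call, and *Zscan5b* is not in the fit at 50 normalized counts.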
